A study of Mus musculus with 18 samples.

Results

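Small nucleolar RNA (snoRNA) host genes are transcribed into RNAs whose introns hold snoRNAs, and 10 of them were examined here in mouse cerebellum: Gas5, Snhg1, Snhg3, Snhg5, Snhg6, Snhg8, Snhg12, Zfas1, Snhg11 and Snhg14. They were taken by symbol as listed host genes, and all 10 were found among the 54752 genes of the RNA files. The study measured poly(A) RNA and ribosome footprints in cerebella of mice that lack either of a pair of related GTPases, GTPBP1 and GTPBP2, to learn what each loss does to gene expression and translation. For each assay there were 3 libraries of each of 3 genotypes, each from 1 mouse, so 9 RNA and 9 footprint libraries; RNA and footprint libraries were not matched by mouse here. All mice were of the C57BL/6J strain (B6J), were 3 weeks old, included both sexes, and carried that strain's mutation in n-Tr20, a tRNA-Arg gene that is active in the nervous system. B6J mice were wild type at Gtpbp1 and Gtpbp2 and served as the control. B6J.Gtpbp1-/- mice were homozygous for a congenic allele in which part of Gtpbp1 is replaced by a PGK-Neo cassette. B6J-Gtpbp2-/- mice were homozygous for nmf205, a point mutation in Gtpbp2. The mutations were present in every cell, so no cell type was targeted.

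As background, the introns of a host RNA are trimmed to snoRNAs, which guide the chemical modification of ribosomal and other RNAs, while the spliced exons leave the nucleus. Exons of hosts such as Gas5 carry short reading frames, and ribosomes that end early on them can expose the RNA to nonsense-mediated decay (NMD), the pathway that degrades RNAs with a stop codon well ahead of an exon junction. Gas5 was first found through its rise in cells that had stopped growing, and Snhg14 holds the imprinted snoRNA clusters of the Prader-Willi and Angelman syndrome region and lies antisense to Ube3a in neurons.

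RNA libraries held between 37794598 and 52114400 estimated counts, and footprint libraries between 3630823 and 10442573 counts. Of the 138835 transcripts, 49.2% were above 0 in B6J replicate 1 and 48.4% in B6J replicate 3, against 57.9% to 61.7% in the other 7 RNA libraries. These 2 control libraries stand apart, so the counts of members that passed the test are also given with B6J replicate 2 as the only control, a setting chosen after the data were seen. The Y-linked gene Ddx3y exceeded 1000 counts in 3 libraries (replicate 2 of B6J, replicates 1 and 2 of B6J.Gtpbp1-/-). It did not exceed 26 in the other 6. By this gene all B6J-Gtpbp2-/- RNA libraries were female, and B6J replicate 2 was the only male control. With B6J replicate 2 as the only control, sex and genotype therefore cannot be told apart in B6J-Gtpbp2-/-. The labels name 1 batch for all RNA libraries and another for all footprint libraries; how libraries were grouped within a batch is not stated.

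Markers of the cerebellum were present: granule neuron markers (8 genes, Cbln1 having the highest mean TPM over the 9 libraries) summed to 3727 ± 36.3 transcripts-per-million (TPM; SD, n = 3) in B6J, and the Purkinje cell markers (6 genes, with Pcp4 the highest by that mean) to 5791 ± 528 TPM. None of the markers of the 8 cell type lists was at 0 in any of the 9 RNA libraries. Gtpbp1 was 71.6 ± 5.61 counts-per-million (CPM; SD, n = 3) in B6J and 43.2 ± 1.32 CPM in B6J.Gtpbp1-/-, with no overlap, a log2 fold change of -0.73 (adjusted p = 5.94e-05, edgeR's quasi-likelihood test, p adjusted after Benjamini and Hochberg (BH) over all genes tested). On the TPM scale, which divides by transcript length, Gtpbp1 overlapped between these genotypes (log2 fold change -0.14, adjusted p = 0.419 in limma). Gtpbp2, whose allele is a point mutation, was 71.4 ± 5.14 CPM in B6J-Gtpbp2-/- and 82.4 ± 7.53 CPM in B6J, a log2 fold change of -0.22 (adjusted p = 0.19 in edgeR's quasi-likelihood test) that turned to 0.47 on the TPM scale. Gtpbp2 was higher in B6J.Gtpbp1-/- than in B6J-Gtpbp2-/- (log2 fold change 0.55, adjusted p = 0.036, edgeR's quasi-likelihood test), with TPM overlapping. It was also higher in B6J.Gtpbp1-/- than in B6J (0.34, adjusted p = 0.0154 in the same test). The call of Gtpbp1 was lost with effective transcript lengths as offset. The RNA levels thus bear on the Gtpbp1 label only by counts without a length correction, and those against B6J do not check the Gtpbp2 label.

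The members differed widely in level and in build. Snhg14 spans 667836 bases on chromosome 7 and holds 208 annotated snoRNA entries, Gas5 spans 4118 bases on chromosome 1 with 10, Snhg1 spans 2969 bases on chromosome 19 with 8, and Snhg12 spans 2402 bases on chromosome 4 with 5. Zfas1 on chromosome 2 has 3, Snhg3 on chromosome 4, Snhg5 on chromosome 9 and Snhg11 on chromosome 2 have 2 each, and Snhg6 on chromosome 1 and Snhg8 on chromosome 3 have 1 each. In B6J, Snhg14 had the highest level at 628 ± 41.9 TPM (SD, n = 3), followed by Snhg11 at 336 ± 64.1, Gas5 at 146 ± 16.1 and Snhg1 at 49.2 ± 2.9 TPM, and none of these 4 overlapped the next. The other 6 lay close together: Snhg8 at 35.1, Snhg6 at 31.3, Snhg12 at 30.4, Zfas1 at 29.4, Snhg3 at 26.5 and Snhg5 at 19.1 TPM, each overlapping the next in that order. Snhg11 and Snhg14 held 71.0% to 74.0% of the members' summed TPM in the B6J libraries, and 60.8% to 66.9% in the 6 mutant libraries. In both mutants the first 4 places were unchanged and Snhg12 came next, at 66.2 ± 1.94 TPM in B6J.Gtpbp1-/- and 57.5 ± 7.84 TPM in B6J-Gtpbp2-/-. Snhg8, Zfas1 and Snhg6 followed Snhg12 in both mutants, each overlapping the gene before it, and Snhg6 did not overlap the next lower gene, Snhg5 in B6J.Gtpbp1-/- and Snhg3 in B6J-Gtpbp2-/-.

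**Figure D1:**
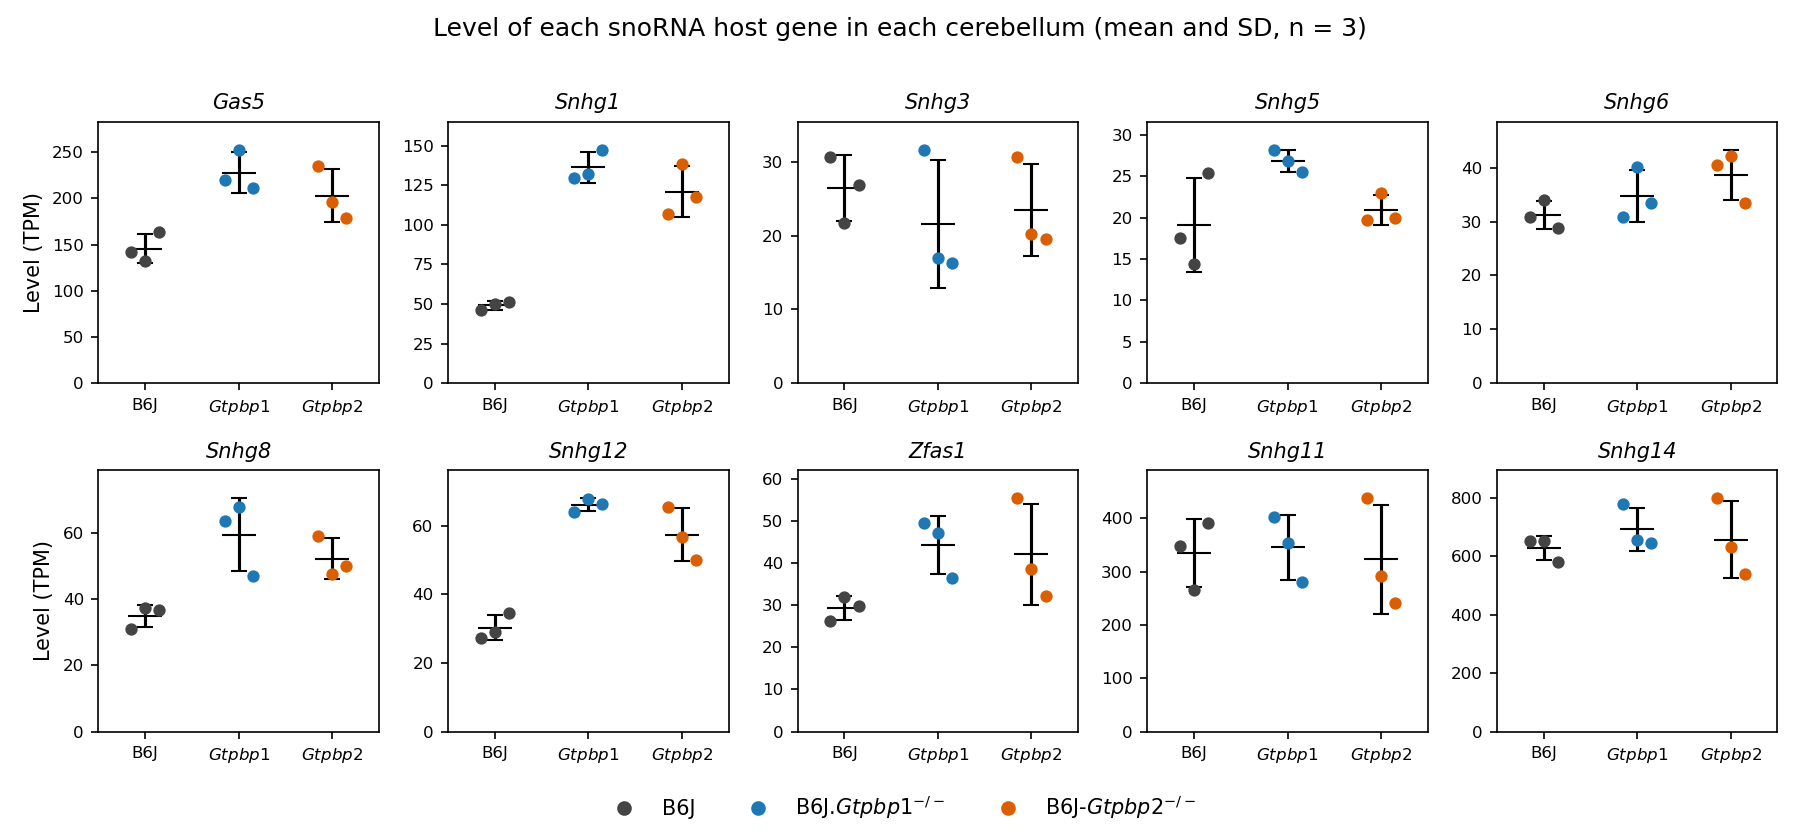
Level of each host gene in TPM (vertical axis, from 0) in the 9 cerebella, by genotype (horizontal axis; Gtpbp1 and Gtpbp2 stand for the mutants). Points are mice and bars are the mean and SD of 3 mice. Snhg1 lies between 45.9 and 51.4 TPM in B6J and at 106.8 TPM or above in every mutant library.

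The comparison of B6J.Gtpbp1-/- with B6J asks what loss of GTPBP1 does to these RNAs. Snhg1, Snhg12 and Gas5 rose and no member fell. Snhg1, host of a row of box C/D snoRNAs, was 45.9, 50.2 and 51.4 TPM in the B6J libraries 1 to 3 and 129.5, 132 and 147.5 TPM in B6J.Gtpbp1-/-. Every mutant library was thus more than 2 times every control library on this scale. On counts, Snhg1 was 2.08 times as high (log2 fold change 1.05, 95% confidence interval 0.81 to 1.30, adjusted p = 4.26e-05, edgeR's quasi-likelihood test, BH), with all 3 mutant libraries above all 3 B6J libraries. Snhg12, which holds both box H/ACA and box C/D snoRNAs, was 27.4, 29.1 and 34.5 TPM in B6J and 64.1, 67.97 and 66.4 TPM in B6J.Gtpbp1-/-. Again the groups did not overlap, and the mutant libraries lay closer together than the controls. Its log2 fold change on counts was 0.60 (interval 0.30 to 0.89, adjusted p = 0.0103, edgeR's quasi-likelihood test, BH). Gas5 was 142, 132 and 163 TPM in B6J and 219.7, 253 and 211 TPM in B6J.Gtpbp1-/-. All 3 mutant libraries were above all 3 controls, and replicate 2 was the highest. Its log2 fold change on counts was 0.37 (interval 0.15 to 0.60, adjusted p = 0.0288, edgeR's quasi-likelihood test, BH), a smaller difference than on the TPM scale, where it was 0.64 before and 0.48 after the median of all genes was taken off. With that median taken off, the TPM-scale values of Snhg1 and Snhg12 were 1.30 and 0.96.

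In all, 3 of the 10 members passed the test in this comparison, against 13.8% of the 24577 genes tested (1449 higher, 1949 lower), and 5 of 10 had an unadjusted p under 0.05, against 6464 of the 24577. CPM did not overlap, with the mutant above, for 4 members (Snhg1, Snhg12, Gas5 and Snhg8), against 16.4% of all genes tested. The members' median log2 fold change was 0.33, beside 0.03 for all genes tested. Snhg8, host of an H/ACA snoRNA, was 31.2, 37.3 and 36.8 TPM in B6J and 63.8, 68.02 and 47.1 TPM in B6J.Gtpbp1-/-, and Zfas1 was 26.4, 31.99 and 29.9 TPM in B6J and 49.5, 47.1 and 36.6 TPM in the mutant. Both were above B6J in all 3 mutant libraries in TPM, with replicate 3 the lowest mutant, while the CPM of Zfas1 overlapped. On counts neither passed the test (log2 fold change 0.52 and 0.37, adjusted p = 0.122 and 0.152 in edgeR's quasi-likelihood test); on TPM with limma both did (adjusted p = 0.0241 and 0.0411). Over their alternatives the adjusted p ranged from 0.0241 to 0.407 for Snhg8 and from 0.0411 to 0.437 for Zfas1. The remaining 5 did not pass: Snhg5 had a log2 fold change of 0.29, Snhg14 of -0.01, Snhg6 of -0.05, Snhg11 of -0.11 and Snhg3 of -0.56. The values of Snhg6, Snhg11 and Snhg14 were positive on the TPM scale, but with the median of all genes taken off they were -0.02, -0.12 and -0.02. Snhg3 varied most among the mutant mice, at 31.7 TPM in replicate 1 and 17.0 and 16.3 TPM in replicates 2 and 3.

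Leaving out single libraries changed the calls of Gas5 and Snhg12 more than their log2 fold changes, which stayed between 0.28 and 0.43 for Gas5 and between 0.54 and 0.69 for Snhg12. Gas5 missed the threshold without B6J.Gtpbp1-/- replicate 1 (adjusted p = 0.0517), without B6J.Gtpbp1-/- replicate 2 (0.176), without B6J replicate 1 (0.0733) and without B6J replicate 2 (0.116), all in edgeR's quasi-likelihood test, over alternatives that ranged from 0.00243 to 0.176. Snhg12 missed it without B6J replicate 2 (adjusted p = 0.0506 in edgeR's quasi-likelihood test, range over its alternatives 0.000584 to 0.0506), and Zfas1 passed without B6J.Gtpbp1-/- replicate 3 (0.0475). Gas5 also missed it with sex as a covariate (0.0652) and with a replicate block (0.0835). Snhg1 passed in all 15 alternatives, with log2 fold changes of 0.98 to 1.46. With B6J replicate 2 as the only control, assumed to vary like the mutant libraries, Snhg1, Snhg12 and Gas5 passed, 3 of 10, against 1782 of 23341 genes in that setting.

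The comparison of B6J-Gtpbp2-/- with B6J asks the same for GTPBP2, and it shares its 3 control libraries with the comparison above. By Ddx3y its mutant libraries were all female, while B6J replicate 2 was male, so that library as the only control differs in sex too. Snhg1 was the only member that rose in edgeR's quasi-likelihood test. It was 106.8, 139 and 117.5 TPM in the B6J-Gtpbp2-/- libraries 1 to 3, against 45.9 to 51.4 TPM in B6J, and all 3 mutant libraries were more than 2 times each control. On counts it was 1.82 times as high (log2 fold change 0.86, interval 0.59 to 1.13, adjusted p = 0.00158, edgeR's quasi-likelihood test, BH). This was 1 of 10 members, against 8.63% of the 24859 genes tested (898 higher, 1248 lower). At an unadjusted p under 0.05 there were 3 members, against 5585 of the 24859 genes, and the CPM of 3 (Snhg1, Snhg12 and Snhg8) lay above B6J without overlap, against 14.9% of all genes tested. With B6J replicate 2 as the only control, 0 of 10 passed in edgeR, against 280 of 23716 genes, and Snhg1 had a log2 fold change of 0.91 (adjusted p = 0.052, range over its alternatives 8.96e-09 to 0.052).

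Snhg12 was 65.6, 56.7 and 50.03 TPM in B6J-Gtpbp2-/-, above all 3 B6J libraries, the highest of which was 34.5 TPM. On counts its log2 fold change was 0.45 (interval 0.10 to 0.79, adjusted p = 0.109 in edgeR's quasi-likelihood test), which did not pass. It passed in DESeq2 (adjusted p = 0.0464), with an offset for effective transcript length (0.0349), in a model of all 9 libraries (0.0482) and on TPM with limma (0.0172), over a range of 0.0172 to 0.272. Gas5 was 235, 196.5 and 178 TPM, also above B6J in all 3 libraries in TPM, while its CPM overlapped and its log2 fold change on counts was 0.26 (interval 0.01 to 0.50, adjusted p = 0.2 in edgeR's quasi-likelihood test). Snhg8 was 59.3, 47.6 and 50.02 TPM, without overlap with B6J (log2 fold change 0.40, adjusted p = 0.277 in edgeR's quasi-likelihood test; 0.0459 on TPM with limma). In each of these genes replicate 1 was the highest. It was also the highest for Zfas1, at 55.4 TPM against 38.5 and 32.2 TPM, and without it the log2 fold change of Zfas1 went from 0.26 to -0.01. For the others the log2 fold change was 0.10 (Snhg6), -0.02 (Snhg5), -0.02 (Snhg14), -0.19 (Snhg11) and -0.32 (Snhg3), with adjusted p from 0.566 to 0.973 in edgeR's quasi-likelihood test. On the TPM scale with the median of all genes taken off, Snhg5 was at 0.01 and Snhg14 at -0.10. On the TPM scale, with the median of all genes taken off, Snhg1 was at 1.13, Snhg12 at 0.76 and Gas5 at 0.32. The members' median on counts was 0.18, beside 0.03 for all genes tested.

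**Figure D2:**
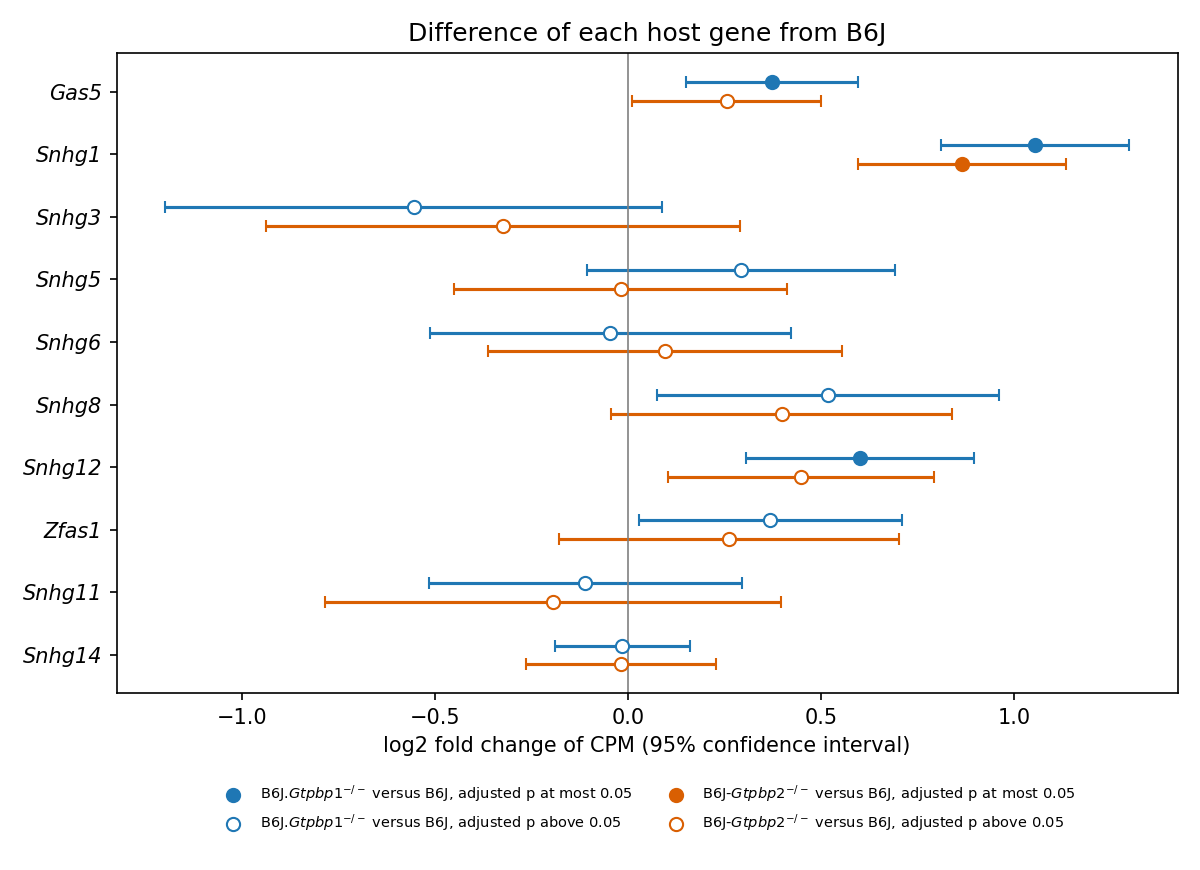
Log2 fold change of each host gene on counts (horizontal axis) in each mutant against B6J, with 95% confidence intervals; filled points had an adjusted p of at most 0.05. Snhg1 is at 1.05 and 0.86, and both mutants are compared with the same 3 B6J libraries.

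Between the mutants, no member passed the test: 0 of 10, against 0.0595% of the 25190 genes tested (15 genes) in edgeR, with 0 members at an unadjusted p under 0.05 and 0 in DESeq2. Log2 fold changes of B6J.Gtpbp1-/- over B6J-Gtpbp2-/- lay between -0.23 (Snhg3) and 0.31 (Snhg5), and that of Snhg1 was 0.19 (interval -0.02 to 0.39). The CPM of Snhg1 and of Snhg5 in B6J.Gtpbp1-/- lay above B6J-Gtpbp2-/- without overlap, while the TPM of Snhg1 overlapped. By the test, a difference of Gas5, Snhg1 or Snhg12 between the 2 mutants was not shown. Gas5 and Snhg12 nevertheless passed against B6J in 1 of them and not in the other.

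These are whole cerebella, so fewer cells of a type and less RNA per cell cannot be told apart. Beside the marker counts below, 13.8% and 8.63% of all genes tested passed in B6J.Gtpbp1-/- and B6J-Gtpbp2-/- in edgeR. Granule neuron markers fell, 7 of 8 in B6J.Gtpbp1-/- and 6 of 8 in B6J-Gtpbp2-/-, to summed levels of 2567 ± 225 and 2583 ± 203 TPM (SD, n = 3), without overlap with B6J. On TPM with limma 5 and 4 of the 8 fell, and with B6J replicate 2 as the only control 5 and 3. Gabra6, a GABA receptor subunit of granule cells, had log2 fold changes of -1.08 and -1.02 (adjusted p = 1.6e-05 and 8.16e-05, edgeR's quasi-likelihood test). Microglia markers rose, 4 of 6 and 3 of 6, from a summed 61.8 ± 6.79 TPM to 132 ± 10.99 and 129.7 ± 4.96 TPM (C1qa, the most abundant, 1.37 and 1.32). Oligodendrocyte markers (Mbp the most abundant) fell for 6 of 6 in B6J.Gtpbp1-/- and for 0 of 6 in B6J-Gtpbp2-/- in edgeR (0 at an unadjusted p under 0.05, 0 in DESeq2). On TPM with limma the count in B6J.Gtpbp1-/- was 1 of 6. Purkinje cell markers fell for 2 of 6 in each mutant, and for 0 of 6 in each on TPM with limma. Of 7 astrocyte markers (Slc1a3 the most abundant), 1 rose, Gfap, and 4 fell in each mutant; on TPM 1 fell in B6J.Gtpbp1-/- and 0 in B6J-Gtpbp2-/-. Vascular and blood markers (Hbb-bs the most abundant) rose for 1 and 2 of 4, for 3 and 1 with the length offset, and for 3 and 0 with B6J replicate 2 as the only control. Choroid plexus markers (Ttr) and proliferating cell markers (Cdk1) passed for 0 of 3 and 0 of 4 in each mutant in edgeR. At an unadjusted p under 0.05 there were 0 choroid plexus markers in either mutant, and 0 and 2 proliferating cell markers; DESeq2 called 0 and 0, and 0 and 1. Choroid plexus markers summed to 3295, 2165 and 444.6 TPM in B6J and to 108.5, 2226 and 1451 TPM in B6J-Gtpbp2-/-. Vascular and blood markers summed to 3731, 2150 and 2819 TPM in B6J and to 1045, 4540 and 2697 TPM in B6J-Gtpbp2-/-. Replicate 1 of B6J-Gtpbp2-/-, the lowest in both, was the highest of its genotype in TPM for Snhg12, Gas5, Snhg8 and Zfas1. It was also the highest for Snhg3, Snhg11 and Snhg14, and the lowest for Snhg1 and Snhg5. The part of these cell types in the levels of the host genes was not tested.

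The members are made as several transcripts, and kallisto divides reads between transcripts that share exons, so the values of single transcripts are estimates. For 8 members, all but Snhg3 and Snhg6, some annotated transcripts keep a snoRNA within an exon and others do not. The plan was to give the shares of these classes with no test, and the tests of the classes below were chosen after those shares had been seen. Their p values leave out the uncertainty of how reads were divided between transcripts. In Snhg1, the transcripts with a snoRNA in an exon held 23.3%, 15.3% and 18.4% of the gene's TPM in B6J, 12.1%, 10.2% and 9.06% in B6J.Gtpbp1-/-, and 13.0%, 9.05% and 9.56% in B6J-Gtpbp2-/-. In Snhg12 they held 37.6%, 24.6% and 23.7% in B6J, 15.6%, 11.8% and 12.8% in B6J.Gtpbp1-/-, and 13.9%, 15.7% and 18.9% in B6J-Gtpbp2-/-. In both genes all 6 mutant libraries were below all 3 B6J libraries. In Gas5 the share was 30.6%, 25.9% and 23.3% in B6J and 20.5%, 22.5% and 23.0% in B6J.Gtpbp1-/-, with no overlap in TPM though it overlapped as a share of estimated counts, and 24.3% to 25.2% in B6J-Gtpbp2-/-, which overlapped B6J. The share of Snhg8 was above B6J in B6J.Gtpbp1-/- (4.12% to 6.52% against 2.74% to 4.08%), and those of Snhg5, Zfas1, Snhg11 and Snhg14 overlapped in both mutants in TPM.

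The levels of both classes are given for the 3 genes that rose. Summed over the 7 Snhg1 transcripts with no snoRNA in an exon, the level was 35.2, 42.5 and 42.0 TPM in B6J, 114, 119 and 134 TPM in B6J.Gtpbp1-/-, and 92.9, 126 and 106 TPM in B6J-Gtpbp2-/-. The 11 that hold one were at 7.69 to 10.7, 13.4 to 15.7 and 11.2 to 13.9 TPM. Both classes lay above B6J in TPM in every mutant library. For Snhg12, the 2 transcripts without a snoRNA were at 17.1, 21.96 and 26.3 TPM in B6J, 54.1, 59.98 and 57.9 TPM in B6J.Gtpbp1-/-, and 56.5, 47.8 and 40.6 TPM in B6J-Gtpbp2-/-. Its 8 transcripts with one were at 7.15 to 10.3 TPM in B6J, and overlapped in both mutants at 7.99 to 10.01 and 8.92 to 9.44 TPM. For Gas5, the 9 without a snoRNA were at 98.5, 97.7 and 125 TPM in B6J, 175, 196 and 162.5 TPM in B6J.Gtpbp1-/-, and 178, 148 and 133 TPM in B6J-Gtpbp2-/-. The 16 Gas5 transcripts with one were at 34.1 to 43.5 TPM in B6J, 45.04 to 57.0 TPM in B6J.Gtpbp1-/- and 44.96 to 57.0 TPM in B6J-Gtpbp2-/-. Both classes of Gas5 thus lay above B6J in TPM in each mutant library, while the CPM of the whole gene overlapped in B6J-Gtpbp2-/-. The share of all host genes whose classes lay above B6J in TPM without overlap was not counted.

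Each host gene with both classes was divided in 2 and fitted with all other genes in edgeR. In B6J.Gtpbp1-/- the class without a snoRNA passed for 3 of 8 members (Snhg1, Snhg12 and Gas5), against 14 of 62 such features of all divided host genes. The class with one passed for 0 of 8, against 2 of 61 such features, and 0 of these 8 had an unadjusted p under 0.05. Of all features in that fit 13.8% passed. Snhg1 transcripts without a snoRNA were 2.9 times as high on counts (log2 fold change 1.53, adjusted p = 5.42e-06, edgeR's quasi-likelihood test), while those with one had a log2 fold change of 0.31 (adjusted p = 0.307). For Snhg12 the values were 1.15 (adjusted p = 0.0014, edgeR's quasi-likelihood test) and -0.12 (0.773), and for Gas5 0.47 (0.0217) and 0.26 (0.24). In B6J-Gtpbp2-/- the class without a snoRNA passed for 2 of 8 (Snhg1, 1.28, adjusted p = 0.000536, and Snhg12, 0.91, adjusted p = 0.0284, edgeR's quasi-likelihood test), against 4 of 62 such features. The class with one passed for 0 of 8 in edgeR (0 at an unadjusted p under 0.05), against 3 of 62 such features. Of all features 8.59% passed. The calls in Snhg1 and Snhg12 in B6J.Gtpbp1-/- held in all 10 alternatives tried. That of Snhg1 in B6J-Gtpbp2-/- held in 9 of 10, all but B6J replicate 2 as the only control (adjusted p = 0.0549, range 2.02e-13 to 0.0549). That of Snhg12 in B6J-Gtpbp2-/- held in 4 of 10: it was lost with the replicate block, without B6J-Gtpbp2-/- replicate 1 or 2, without B6J replicate 1 or 2, and with B6J replicate 2 alone (adjusted p 0.00158 to 0.172 over the alternatives), while its log2 fold change stayed between 0.76 and 1.08. That of Gas5 was lost in the same left-out libraries as for the whole gene and with the replicate block (0.00308 to 0.123), at log2 fold changes of 0.40 to 0.59.

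The difference between the classes was also tested itself, as the log2 ratio of transcripts with a snoRNA to those without, with limma over the host genes that had enough counts in both. It did not pass for any gene: 0 of 60 (0.0%) in B6J.Gtpbp1-/- and 0 of 61 (0.0%) in B6J-Gtpbp2-/-, with 6 and 11 genes at an unadjusted p under 0.05, and DESeq2 was not run on ratios. In B6J.Gtpbp1-/-, Snhg12 at -1.28 and Snhg1 at -1.21 had the lowest ratios of the 60 genes, beside a median of -0.03. Each had an adjusted p of 0.0807 in limma. The other members tested went both ways, from -0.74 (Snhg5) to 0.69 (Snhg8, place 54 of 60 from the lowest). In B6J-Gtpbp2-/- Snhg12 was at -1.01 and Snhg1 at -0.99, places 2 and 3 of 61 from the lowest, beside a median of 0.05. Each had an adjusted p of 0.147 in limma, and the other members lay between -0.78 (Snhg5) and 0.23 (Snhg11). An unequal change of the classes was therefore not established.

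**Figure D3:**
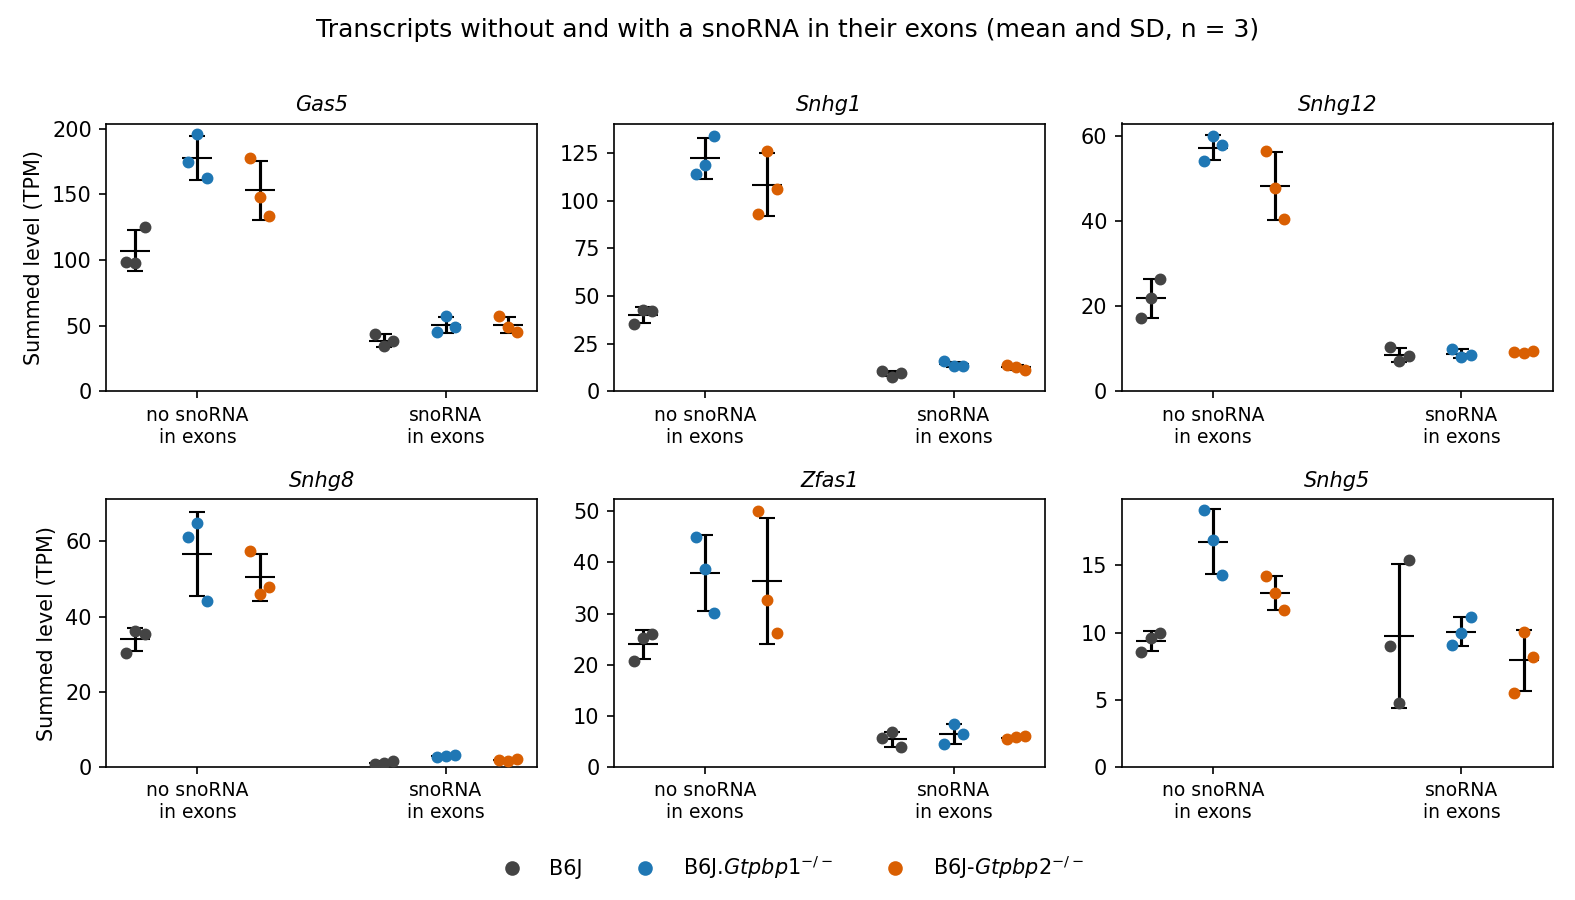
Summed level in TPM (vertical axis, from 0) of the transcripts without and with a snoRNA in an exon, for 6 host genes in the 9 cerebella. Points are mice, bars are the mean and SD of 3 mice. Snhg12 transcripts without a snoRNA are at 17.1 to 26.3 TPM in B6J and at 40.6 TPM or above in the mutants.

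In Snhg1, Snhg12 and Gas5, 1 transcript held most of the difference in TPM. Snhg1-211, a spliced RNA of 605 bases and 10 exons, was 25.9, 38.8 and 42.0 TPM in B6J, 105, 114 and 120.5 TPM in B6J.Gtpbp1-/-, and 89.9, 118 and 100.5 TPM in B6J-Gtpbp2-/-. Snhg12-206, of 606 bases and 5 exons, was 17.1, 21.4 and 26.3 TPM in B6J, 52.8, 56.8 and 57.0 TPM in B6J.Gtpbp1-/-, and 49.3, 44.1 and 37.0 TPM in B6J-Gtpbp2-/-. Gas5-210, of 557 bases and 11 exons, was 41.0, 45.2 and 57.9 TPM in B6J, 97.4, 106 and 85.1 TPM in B6J.Gtpbp1-/-, and 118, 80.0 and 76.2 TPM in B6J-Gtpbp2-/-. None of these 3 overlapped B6J in either mutant. The main transcripts of Snhg8 (Snhg8-201) and Zfas1 (Zfas1-205) also lay above B6J in both mutants, while the main transcripts of Snhg3, Snhg5, Snhg6, Snhg11 and Snhg14 overlapped B6J. Along Snhg1-211, the 8 snoRNAs lie in its introns, as do the 10 entries within Gas5-210 and the 5 within Snhg12-206, and 0 of them lie in an exon of these transcripts.

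**Figure D4:**
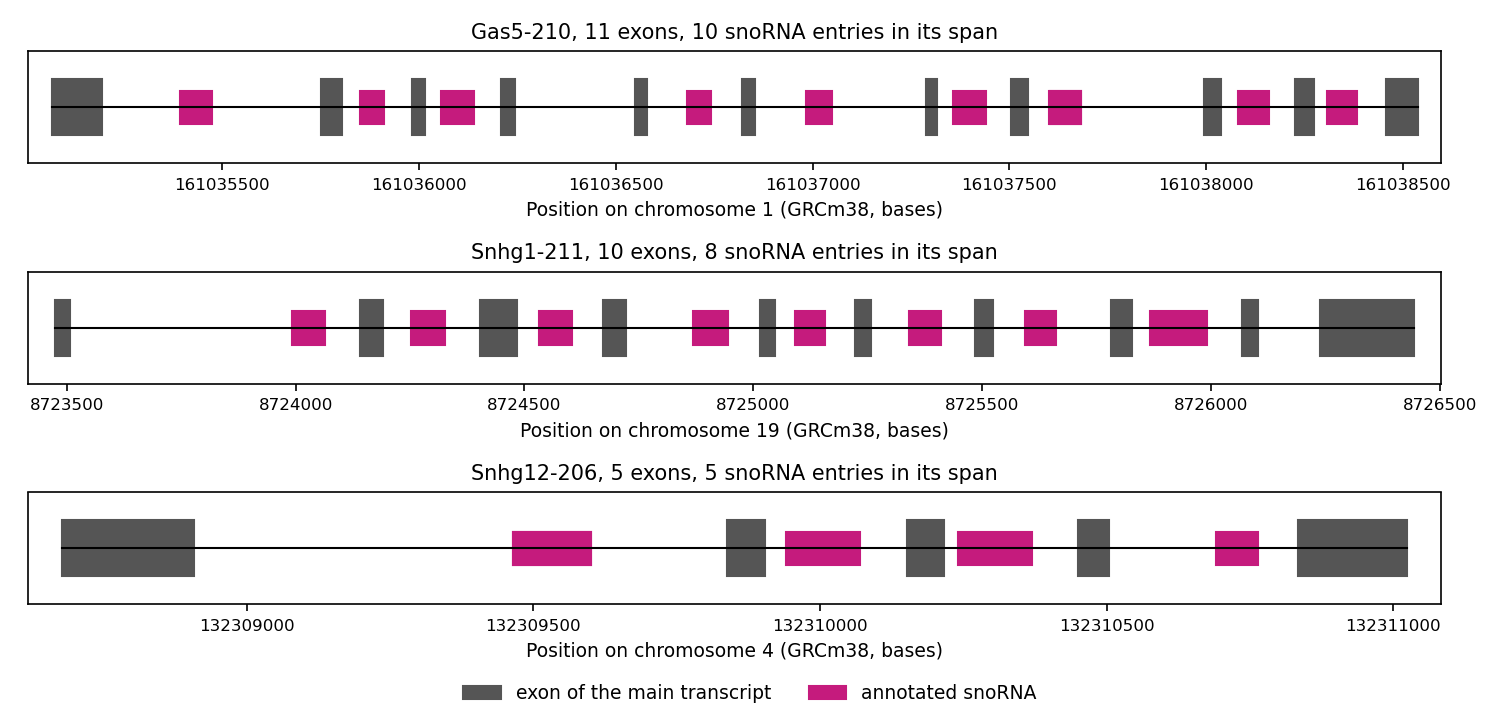
Exons (grey) of the main transcripts of Gas5, Snhg1 and Snhg12 and the annotated snoRNAs (pink), to scale, by position in bases on GRCm38 (horizontal axis). Each snoRNA lies in an intron; overlapping entries are drawn on top of each other.

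The snoRNAs themselves could not be followed, as libraries selected for poly(A) are not made to hold them. The 10 snoRNA entries of Gas5, the 8 of Snhg1 and the 5 of Snhg12 had 0 counts in all 9 RNA libraries, as had those of Snhg5, Snhg8 and Zfas1. Those of Snhg3 and Snhg6 had at most 5 counts in a library. The 2 entries of Snhg11 summed to 21 to 66 counts and the 208 of Snhg14 to 74 to 187 counts, in both cases with B6J and mutant libraries overlapping. Whether more or less snoRNA was made was not measured.

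In the footprint tables, which count ribosome footprints over coding sequence for 22523 genes, 9 of the 10 members were absent and Snhg11 was present. The annotation lists Snhg11 as protein coding, which goes against its place among noncoding hosts. Its footprints numbered 99, 90 and 32 in the B6J libraries 1 to 3, 11, 36 and 66 in B6J.Gtpbp1-/-, and 123, 76 and 94 in B6J-Gtpbp2-/-. As CPM they were 22.4, 20 and 4.91 in B6J, 1.56, 4.18 and 11.1 in B6J.Gtpbp1-/-, and 19.6, 20.9 and 9 in B6J-Gtpbp2-/-. The groups overlapped, and within B6J and within B6J.Gtpbp1-/- the highest replicate was more than 4 times the lowest, while the RNA was between 241 and 438 TPM in all 9 libraries. Footprints on the short frames of the other members are not counted in these tables, so their translation was not analysed here.

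Of the members, 4 have an annotated neighbour that starts within 5 kb on the opposite strand. Snhg1 starts 106 bases from Slc3a2, which encodes the heavy chain of several amino acid transporters. Slc3a2 was 124, 124 and 112 CPM in B6J, 279, 289.5 and 349 CPM in B6J.Gtpbp1-/-, and 237.5, 336 and 306 CPM in B6J-Gtpbp2-/-, all 6 mutant libraries above all 3 controls. Its log2 fold changes were 1.35 and 1.28 (adjusted p = 1.43e-06 and 0.000107, edgeR's quasi-likelihood test, BH), and it passed in all 15 alternatives of each comparison. Gas5 starts 218 bases from Zbtb37, a zinc finger gene, which rose by a log2 fold change of 0.47 and 0.39 (adjusted p = 0.0308 and 0.0427, edgeR's quasi-likelihood test), calls that held in 7 and 5 of 15 alternatives (adjusted p up to 0.202 and 0.287). Zfas1 starts 81 bases from Znfx1, at 0.21 and 0.17, and Snhg3 starts 1914 bases from Gm17300, at 0.23 and 0.69, and neither neighbour passed on counts. Libraries were not strand-specific, so reads in exons shared with a gene of the opposite strand cannot be given to a strand. Such bases made up 71.5% of Snhg3 (with Gm17300), 11.1% of Snhg6 (with Mcmdc2), 6.91% of Snhg14 (with Ube3a) and 2.8% of Zfas1 (with Znfx1). On the same strand, Snhg3 shares 13.7% of its exonic bases with Rcc1 and Snhg14 shares 0.1% with Gm38393. The other 6 members, Gas5, Snhg1 and Snhg12 among them, share none. Genes of snoRNAs and other small RNAs were left out of this search.

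Of 12 further noncoding hosts, 9 were in the files and 8 were tested. In B6J.Gtpbp1-/- 1 rose and 1 fell, and in B6J-Gtpbp2-/- 1 rose and 0 fell in edgeR (1 fell in DESeq2), beside 13.8% and 8.63% of all genes tested. Snhg15 was 9.59, 11.6 and 9.92 TPM in B6J, 28.2, 25.8 and 25.6 TPM in B6J.Gtpbp1-/-, and 16.1, 22.04 and 21.6 TPM in B6J-Gtpbp2-/-, with no overlap of either mutant with B6J. It rose in both (log2 fold change 1.11 and 0.84, adjusted p = 0.00555 and 0.0494, edgeR's quasi-likelihood test), calls that held in 14 and 6 of 15 alternatives and in neither mutant with B6J replicate 2 as the only control (adjusted p = 0.0771 and 0.318 in edgeR, the highest of the alternatives). Rian, an imprinted host of many snoRNAs and the most abundant of that list, fell in B6J.Gtpbp1-/- (-0.48, adjusted p = 0.0342, edgeR's quasi-likelihood test, passing in 7 of 15 alternatives) and did not pass in B6J-Gtpbp2-/- (-0.38, 0.105). The list's medians in the 2 mutants, in the same order, were 0.25 and 0.15, beside 0.03 for all genes tested.

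Of 29 hosts that code for proteins, mostly ribosomal proteins and translation factors, 2 rose and 1 fell in B6J.Gtpbp1-/- and 2 rose and 0 fell in B6J-Gtpbp2-/- in edgeR, beside 13.8% and 8.63% of all genes tested. DESeq2 called 2 higher and 1 lower, and 2 higher and 2 lower. Their medians were 0.06 and 0.07. The 2 that rose in both were Hspa9, a mitochondrial chaperone (1.20 and 1.00), and Wdr43, a factor of ribosome assembly (0.52 and 0.43). Hspa9 passed in all 15 alternatives in B6J.Gtpbp1-/- and in 14 in B6J-Gtpbp2-/-, and Wdr43 in 15 and 9. Hspa8, the most abundant of the list, had log2 fold changes of -0.19 and -0.28 that did not pass (adjusted p = 0.218 and 0.102, edgeR's quasi-likelihood test). On TPM with limma, 8 and 4 of the 29 rose and 0 fell, and with B6J replicate 2 as the only control 2 and 0 rose.

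Of 18 proteins that build snoRNA particles, 3 rose in B6J.Gtpbp1-/- and 1 in B6J-Gtpbp2-/- and 0 fell in edgeR, beside 13.8% and 8.63% of all genes tested, with medians of 0.09 and 0.11. DESeq2 called the same numbers higher, and 1 lower in B6J.Gtpbp1-/-. With B6J replicate 2 as the only control 1 and 0 rose. Nop58, a core protein of box C/D particles, rose in both (log2 fold change 1.11 and 0.95, adjusted p = 1.43e-06 and 0.000836, edgeR's quasi-likelihood test), all 6 mutant libraries lying above B6J. With B6J replicate 2 as the only control it missed the threshold in B6J-Gtpbp2-/- (adjusted p = 0.0997, range 3.66e-11 to 0.0997). Snu13, the most abundant, was at -0.02 and -0.03 and did not pass. The list shares Nop56 and Dkc1 with the protein-coding hosts.

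Of 16 factors of NMD and of the exon junction complex on which it acts, 0 rose and 1 fell in B6J.Gtpbp1-/- and 0 passed in B6J-Gtpbp2-/- in edgeR, with 1 in each in DESeq2, beside 13.8% and 8.63% of all genes tested. On TPM with limma 1 rose and 0 fell in B6J.Gtpbp1-/-, and under upper quartile scaling 0 passed. At an unadjusted p under 0.05 there were 3 and 4 of the 16, against 6464 of 24577 and 5585 of 24859 genes. Smg1, the kinase of the pathway and the most abundant of the list, was at -0.14 and -0.23 (adjusted p = 0.432 and 0.199, edgeR's quasi-likelihood test). The list's medians were -0.03 and -0.06, and 0.18 and 0.11 on the TPM scale, on which the median of all genes was 0.16 and 0.15.

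For comparison, 8 of 8 targets of the integrated stress response, the programme that the transcription factor ATF4 drives when translation is restrained, rose in both mutants, with medians of 2.14 and 2.04; with B6J replicate 2 as the only control 8 and 6 rose. Of all genes tested, 13.8% passed in B6J.Gtpbp1-/- and 8.63% in B6J-Gtpbp2-/- with all 3 B6J libraries. Examples of these targets are Sesn2 (2.98 and 2.83), Chac1 (2.99 and 2.93), Asns (2.14 and 1.97) and Atf4 itself (0.90 and 0.83). The largest adjusted p of these examples was 0.000914 (Atf4 in B6J-Gtpbp2-/-, edgeR's quasi-likelihood test).

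Likeness to Gas5 was measured as Pearson's r of log2 CPM over the 9 RNA libraries among 10668 genes with a mean of at least 10 CPM, as a description that includes the difference between genotypes. Among the genes most like it were Kctd18 (0.936), Rpgr (0.936), Txnl4b (0.926) and Srp9 (0.919). Of the members abundant enough, Snhg12 was at place 10 (0.903), Zfas1 was at place 128 (0.765), Snhg1 at 168 (0.748), Snhg11 at 2340 (0.335) and Snhg14 at 2501 (0.307). None of these 4 genes outside the members passed edgeR's quasi-likelihood test in either mutant, the nearest being Srp9 in B6J.Gtpbp1-/- (0.28, adjusted p = 0.0504, and 0.0163 to 0.213 over its alternatives). In B6J.Gtpbp1-/- Srp9 passed in 7 and Kctd18 in 4 of 15 alternatives, DESeq2 among them.

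The starts and the first reading frames of the members were searched, with all searches chosen after the results were known. Hosts such as Gas5 are known for starts in a run of pyrimidines, as in the RNAs of ribosomal proteins. A run of at least 5 bases that are each C or T, beginning within 5 bases of the annotated start, was found at the main start of 7 of 10 members in Gencode, against 21.3% of 24542 tested genes and 31.0% of the 29 protein-coding hosts. In the RefSeq promoter table (GRCm38), which had entries for 9 members and 10 of their starts, 5 of the starts had one, against 22% of 32851 starts. In Gencode, Snhg1 and Snhg12, which rose, had a run, as had Snhg3, Snhg5, Snhg6, Snhg8 and Snhg14, which did not pass on counts. Gas5 had none at the start of Gas5-210 and one at its second RefSeq start. The windows of the 3 genes that rose are shown, from 20 bases before to 30 from the start on, on the strand of the gene, with the run in capitals: chr1:161035146-161035195 (plus strand, RefSeq), chr19:8723455-8723504 (plus strand, Gencode) and chr4:132308658-132308707 (plus strand, the same in both).
Gas5: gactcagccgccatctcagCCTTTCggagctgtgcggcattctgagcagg
Snhg1: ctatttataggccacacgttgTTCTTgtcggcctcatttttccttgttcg
Snhg12: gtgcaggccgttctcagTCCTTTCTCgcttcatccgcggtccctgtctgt
The 8 letters TGATGNAA, a form of the element bound by ATF4, were found on neither strand from 250 bases before to 50 bases after the start of any member (0 of 10), against 3.0% of the tested genes. The 29 protein-coding hosts also had 0. At a share of 3.0%, a count of 0 of 10 cannot set the members apart from the tested genes. All these searches find matches of letters and not sites.

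The first ATG of each main transcript opens a short frame. In 9 of 10 members, all but Snhg3, at least 1 exon junction lies more than 50 bases after the stop codon of that frame, against 71.6% of 3896 main transcripts of tested noncoding genes with at least 2 exons. The frame has 23 codons in Gas5-210, with 6 such junctions after it, 40 codons in Snhg1-211 with 5, 54 codons in Snhg12-206 with 3, and 17 codons in Zfas1-205 with 4. In Snhg8-201 and Snhg14-208 the stop follows the ATG directly. In Snhg3-204 the frame has 42 codons and 0 junctions follow at that distance. The frames of the members that rose are given 5′ to 3′ with the start and stop codons in capitals, to show how short they are; whether ribosomes use them was not measured.
Gas5-210: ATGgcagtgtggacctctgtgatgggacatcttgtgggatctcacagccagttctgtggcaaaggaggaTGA
Snhg1-211: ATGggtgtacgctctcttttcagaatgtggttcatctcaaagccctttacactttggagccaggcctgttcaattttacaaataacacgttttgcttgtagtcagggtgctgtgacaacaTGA
Snhg12-206: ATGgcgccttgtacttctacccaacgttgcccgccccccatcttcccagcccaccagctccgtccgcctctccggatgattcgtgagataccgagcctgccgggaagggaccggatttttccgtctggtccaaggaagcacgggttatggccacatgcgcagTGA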

How the data were processed

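The authors pseudo-aligned paired-end reads of poly(A) RNA to Gencode M20 transcripts with kallisto 0.42.4 and deposited estimated counts (expected counts, not normalized) and TPM per transcript. The footprint files hold raw counts over coding sequence, deposited by the authors from featureCounts after Bowtie2 2.2.3 and HISAT2 2.1.0. Here transcripts were summed per gene and counts rounded. Each 2 genotypes were compared in edgeR 4.0.16 (quasi-likelihood test, robust, TMM; R 4.3.3) over genes that reached 5 counts in 3 or more of the 6 libraries, with Benjamini-Hochberg adjustment over all genes tested and a threshold of 0.05. RNA CPM are on the TMM scale of the 9 libraries, and log2 CPM used a prior count of 2; footprint CPM are counts over the library total. With 3 against 3 mice an exact permutation test cannot go below 0.1. Members and lists were chosen with earlier results of these data known.

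Genes named outside the members are the neighbour that starts nearest on the opposite strand within 5 kb, in each list the most abundant gene (highest mean TPM over the 9 libraries) and up to 4 that passed in both mutants, and those most like Gas5, of which 1 is not reported here; of the marker lists not all of these are named. Ratios of transcript classes used a pseudocount of 0.5 and limma 3.58.1. Alternatives were DESeq2 1.42.0, upper quartile normalization, no filter, effective transcript lengths as offset, log2 of TPM plus 0.5 in limma, a model of all 9 libraries, a replicate block, sex read from Ddx3y, and leaving out each library. B6J replicate 2 as the only control and all tests of transcript classes were added after seeing the data. Fits were tested on simulated data. Positions and sequences are from Gencode M21 and RefSeq on GRCm38. Python 3.11.15, numpy 2.4.6, pandas 2.3.3, scipy 1.17.1 and matplotlib 3.10.9 were used.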

Additional observations from a re-analysis of the deposited data

How the results depend on the processing

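Of 440 member values under an alternative, 388 kept their sign and their side of the threshold, 36 changed sign, 8 no longer passed and 8 newly passed; the causes were not tested. In B6J.Gtpbp1-/- against B6J, 5 members passed on log2(TPM + 0.5) with limma (2156 of 24577 genes), and 1 to 4 when 1 library was left out (2515 of 23938 and 2493 of 23889 genes at these ends). Signs changed on TPM for Snhg6 (0.15), Snhg11 (0.0457) and Snhg14 (0.14), which with the median of all genes taken off were at -0.02, -0.12 and -0.02, under upper quartile scaling for Snhg6 (0.0084) and Snhg14 (0.0377), and with B6J replicate 2 as the only control, chosen after seeing the data, for Snhg11 (0.23); leaving out 1 library gave -0.23 to 0.0419 for Snhg6, -0.26 to 0.035 for Snhg11 and -0.0782 to 0.024 for Snhg14. In B6J-Gtpbp2-/- against B6J, of 24859 genes, 2 members passed in DESeq2 (3393 genes), 2 with the length offset (1351), 2 with all 9 libraries in a model (2873), 3 on TPM with limma (971) and, of 23716 genes, 0 with B6J replicate 2 alone (280). Signs changed under upper quartile scaling for Snhg5 (0.0232) and Snhg14 (0.026), on TPM for Snhg5 (0.16) and Snhg14 (0.047), or 0.01 and -0.10 with that median taken off, and with B6J replicate 2 alone for Snhg3 (0.0092), Snhg5 (0.29) and Snhg11 (0.16); leaving out 1 library gave -0.15 to 0.17 for Snhg5, -0.0124 to 0.43 for Zfas1 and -0.17 to 0.0784 for Snhg14. Between the mutants, sex as a covariate gave -0.21 for Snhg8, -0.24 for Zfas1, -0.23 for Snhg11 and -0.079 for Snhg14. By Ddx3y all B6J-Gtpbp2-/- libraries were female, and of B6J.Gtpbp1-/- only replicate 3 was. These values therefore rest on that 1 library of B6J.Gtpbp1-/-. Leaving out 1 library gave -0.56 to 0.0282 for Snhg3, -0.0641 to 0.38 for Zfas1, -0.0935 to 0.37 for Snhg11 and -0.10 to 0.15 for Snhg14. Snhg12 transcripts with a snoRNA were at 0.12 and 0.14 with B6J replicate 2 alone. Gas5 in B6J.Gtpbp1-/- missed the threshold with sex as a covariate (0.39, adjusted p = 0.0652 in edgeR, over a range of 0.00243 to 0.176).

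With a replicate block, 2 members passed in B6J.Gtpbp1-/- (Gas5 0.37, adjusted p = 0.0835 in edgeR, did not), against 2237 of 24577 genes. In B6J-Gtpbp2-/- 1 member passed with the block, against 2130 of 24859 genes. Replicate numbers do not pair the samples: same-numbered libraries of the 3 comparisons correlated, as deviations from their group means, at -0.02 to 0.00, -0.05 to 0.03 and -0.04 to 0.09.

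Over all genes in B6J.Gtpbp1-/- against B6J, 3398 passed, against 2230 with the length offset, 2156 on TPM, 2237 with the replicate block, 1890 without B6J.Gtpbp1-/- replicate 2 and 1782 with B6J replicate 2 alone. In B6J-Gtpbp2-/- it was 2146, against 3393 in DESeq2, 1351 with the offset, 971 on TPM, 1071 with sex, 953 to 2357 with 1 library left out and 280 with B6J replicate 2 alone. The share that was higher was 42.6% and 41.9%, 54.9% and 53.3% under upper quartile scaling, and 75.2% and 77.2% on TPM, where the median of all genes was 0.13 and 0.12 above that on counts; upper quartile scaling raised that median by 0.05 and 0.04. Between the mutants 15 passed, against 45 in DESeq2, 36 with no filter, 9 with sex and 9 without B6J.Gtpbp1-/- replicate 1.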
